A study of Mus musculus with 6 samples.

Results

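Platelet-derived growth factors and the contractile genes of smooth muscle and myofibroblasts were followed in whole mouse kidney at 4 weeks of age. The 10 genes are the ligands Pdgfa, Pdgfb, Pdgfc and Pdgfd, the receptors Pdgfra and Pdgfrb, and the contractile and cytoskeletal genes Acta2, Tagln, Cnn1 and Des. They were chosen by name, as probe sets that the platform annotation gives exactly 1 of these symbols, and all 10 were found, with 1 probe set each, among the 22180 genes tested. 3 samples were labelled Cre-positive and 3 Cre-negative, each run on 1 Affymetrix whole-transcript array. The labels name, for all samples, a conditional Pals1/Mpp5 knockout line on a C56Bl/6 background and transgenic Six2-Cre mice on a mixed background, with no treatment. Pals1, encoded by Mpp5, is a scaffold of the apical Crumbs polarity complex, and the series title asks about haplo-insufficiency in nephrons, but the labels do not give the number of conditional alleles in each sample. Six2-Cre acts in the progenitors of nephron epithelium, whereas fibroblasts, pericytes, mesangial cells and vascular smooth muscle of the kidney arise outside that lineage.

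PDGF ligands are secreted dimers that activate receptor tyrosine kinases on mesenchymal cells. PDGF-A and PDGF-C act mainly through the alpha receptor and PDGF-D mainly through the beta receptor, while PDGF-B binds both. PDGF-C and PDGF-D are secreted in a latent form and need a protease to remove their CUB domain. In the kidney the beta receptor marks pericytes and mesangial cells, the alpha receptor marks interstitial fibroblasts, and alpha smooth muscle actin, encoded by Acta2, marks vascular smooth muscle and the myofibroblasts that appear in fibrosis.

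The deposited values are log2 levels after RMA, with array medians of 5.55 to 5.64. Levels of different probe sets cannot be ranked against each other, so each gene is compared only with itself across arrays. Means and sums over a gene list are likewise compared only across arrays, and the brightest probe sets weigh most in a sum. Mpp5 itself was at 8.04, 8.06 and 8.20 in Cre-positive arrays, against 8.66, 8.69 and 8.78 in Cre-negative arrays (log2 difference -0.61 ± 0.09, limma adjusted p = 0.00232). The nephron markers Umod, Lrp2, Slc34a1 and Slc12a1 ranged from 11.05 to 13.03 over the 6 arrays. The others of this list ranged from 10.99 to 12.09 (Slc12a3), 9.50 to 10.99 (Aqp2) and 6.59 to 8.29 (Nphs1). Of 7 nephron and collecting duct markers 4 fell and 1 rose by limma, with a median log2 difference of -0.76. Those that fell were the endocytic receptor gene Lrp2 (-1.11 ± 0.10), the podocyte gene Nphs1 (-1.41 ± 0.14) and the transporter genes Slc34a1 (-0.76 ± 0.09) and Slc12a3 (-0.78 ± 0.12), and the collecting duct gene Aqp2 rose by 0.91 ± 0.23. Their summed level on the log2 scale was 14.18 to 14.36 in Cre-positive arrays, against 14.82 to 14.88 in Cre-negative arrays, and its part in the results that follow was not tested. The 4 lower markers became 3 with a sex term and 2 with male arrays alone, and the call of Aqp2 was lost in both, as well as without Cre-positive replicate 2 or any of the Cre-negative arrays. Judged from Xist and Y-linked transcripts, all 3 Cre-positive arrays were male, against 1 male Cre-negative array (replicate 3) and 2 female ones (replicates 1 and 2), so sex and genotype partly overlap. Skeletal muscle transcripts were present in Cre-positive replicate 2 (Myh4 at 7.72, and no higher than 4.86 elsewhere), and adrenal transcripts in Cre-negative replicate 2 (Cyp11b1 at 11.10, and no higher than 4.24 elsewhere). Nothing in the labels says that the samples came from different mice. The Cre-negative arrays, being of both sexes, came from more than 1 mouse. The p-values measure spread between samples, some of which may still be technical replicates. In whole kidney, more cells of a type and more RNA per cell cannot be told apart.

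Tagln and Acta2 rose most among the 10 genes, Pdgfra and Pdgfa rose less, and Pdgfc fell. At limma adjusted p under 0.05, adjusted over all tested genes, 4 of the 10 were higher in Cre-positive kidneys, where 10.7% of all tested genes were called higher, and 1 was lower, where 11.1% of all tested genes were called lower. Pdgfb, Pdgfd, Pdgfrb, Cnn1 and Des did not pass. The Cre-positive arrays all lay above the Cre-negative arrays for 6 genes (18.6% over all tested genes) and all below for 1 (19.9%), so that 7 of 10 had groups without overlap, against 38.5% in all. The median log2 difference of the 10 was 0.44, against -0.01 over all tested genes. An exact two-sided permutation test cannot go below p = 0.1 with 3 against 3 arrays, and the 7 genes without overlap each gave that value. With sex as a second factor, limma called 0 of the 10 in either direction, although 5 had a higher and 1 a lower level at unadjusted p under 0.05. Of all 22180 tested genes it then called 2030. Without Cre-positive replicate 2 and Cre-negative replicate 2 together, limma also called 0 (5 higher and 1 lower unadjusted), and 1853 of all tested genes. At such shares, 0 of 10 does not set the 10 genes apart. The unadjusted counts of both fits have no share over all genes beside them. Without Cre-negative replicate 1 limma called Tagln alone. Leaving out Cre-negative replicate 3 left 2 higher genes, and leaving out Cre-positive replicate 2 left 0 lower ones, with 1 at an unadjusted p under 0.05.

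**Figure D1:**
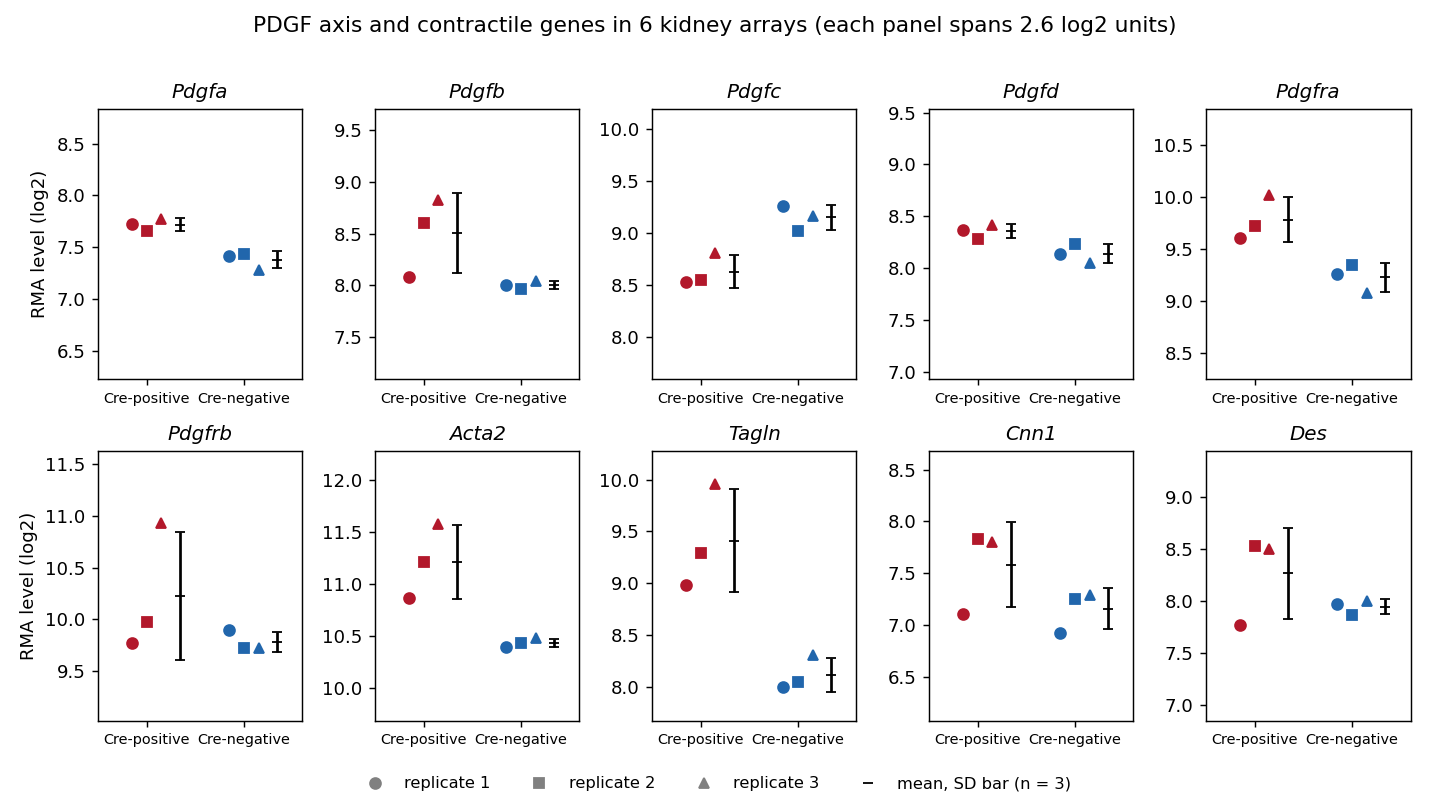
Level of each gene (RMA, log2) in the 3 Cre-positive arrays (red) and the 3 Cre-negative arrays (blue), with mean and SD (n = 3) beside the points; marker shapes give the replicate, and the axes of all panels span the same range. The Cre-positive points of Tagln, Acta2, Pdgfra and Pdgfa lie above the Cre-negative points, those of Pdgfb and Pdgfd also lie above without passing the test, those of Pdgfc lie below, and those of Pdgfrb, Cnn1 and Des overlap them.

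Among the ligands, Pdgfa, which encodes the A chain, was at 7.72, 7.66 and 7.78 in Cre-positive arrays, against 7.41, 7.44 and 7.29 in Cre-negative arrays. The Cre-positive arrays lay close together and all above the Cre-negative ones. The log2 difference was 0.34 ± 0.09 (SE, n = 3 per group), or 1.27-fold with a 95% interval of 1.10 to 1.45, with limma adjusted p = 0.0263. Pdgfa was the least secure of the rises: limma's call was lost in 5 of the 6 fits that each left out 1 array, all but the one without Cre-positive replicate 2, with adjusted p = 0.0538 to 0.0930 in those 5. Pdgfb, whose product recruits mesangial cells and pericytes, was at 8.08, 8.60 and 8.83 in Cre-positive arrays, against 8.004, 7.97 and 8.04 in Cre-negative arrays. Cre-positive replicate 1 sat just above the Cre-negative arrays and the other Cre-positive arrays well above them. The log2 difference of Pdgfb was 0.50 ± 0.18 with limma adjusted p = 0.0847, and 0.71 with adjusted p = 0.00463 without Cre-positive replicate 1. It was 0.45 (limma adjusted p = 0.213) without Cre-positive replicate 2 and 0.34 (adjusted p = 0.182) without Cre-positive replicate 3. Of the 6 fits that left out 1 array, only the one without Cre-positive replicate 1 called Pdgfb.

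Pdgfc was the ligand that fell. Its level was 8.53, 8.55 and 8.81 in Cre-positive arrays, against 9.27, 9.03 and 9.17 in Cre-negative arrays. No Cre-positive array reached the lowest Cre-negative one. The log2 difference was -0.52 ± 0.11, which puts the Cre-positive level at 69.6% of the Cre-negative level, with limma adjusted p = 0.0129. Limma's adjusted p was 0.0501 without Cre-positive replicate 2 and 0.0554 without Cre-negative replicate 1. Pdgfd was at 8.37, 8.28 and 8.42 in Cre-positive arrays, against 8.13, 8.23 and 8.05 in Cre-negative arrays. The groups did not overlap, but Cre-positive replicate 2 and Cre-negative replicate 2 were only 0.05 apart on the log2 scale. The log2 difference of Pdgfd was 0.22 ± 0.09 with limma adjusted p = 0.128.

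Promoter windows from RefSeq (GRCm38.p6), 250 bases before to 50 after a transcription start, were available for 7 of the 10 genes, in 8 windows. They were searched on both strands for the CArG box, the site of serum response factor, which is a pair of C, a run of A or T and a pair of G. A relaxed form with 1 C or G in the A/T run (called CArG-like) was also searched, as was GGAATG, the core of TEAD sites. The Pdgfc window is shown because it alone among the 7 genes held an exact CArG box, which 1.63% of 32851 RefSeq promoter windows of this length hold. It starts 17 bases before the start site and is in capitals. The window lies at chr3:81036166-81036465 on the plus strand.
Pdgfc: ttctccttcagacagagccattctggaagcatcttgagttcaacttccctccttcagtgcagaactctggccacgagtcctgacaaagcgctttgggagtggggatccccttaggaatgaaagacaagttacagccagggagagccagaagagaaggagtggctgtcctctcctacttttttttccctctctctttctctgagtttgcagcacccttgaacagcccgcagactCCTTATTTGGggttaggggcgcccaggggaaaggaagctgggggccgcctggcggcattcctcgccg
GGAATG also stood in this window, at 2 positions (14.7% of all windows hold it). A match is a string of letters, and binding was not measured.

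Of the receptors, Pdgfra passed the test and Pdgfrb did not, and the difference between them was not tested. Pdgfra was at 9.61, 9.73 and 10.02 in Cre-positive arrays, against 9.27, 9.35 and 9.08 in Cre-negative arrays. All Cre-positive arrays lay above all Cre-negative ones. The log2 difference was 0.56 ± 0.13, or 1.47-fold with a 95% interval of 1.19 to 1.81, with limma adjusted p = 0.0192. Without Cre-negative replicate 1 limma's adjusted p was 0.0564, and without Cre-negative replicate 3 it was 0.0676. Pdgfrb was at 9.77, 9.98 and 10.93 in Cre-positive arrays, against 9.89, 9.73 and 9.72 in Cre-negative arrays. Cre-positive replicate 3 alone stood clear of the rest, and Cre-positive replicate 1 lay below Cre-negative replicate 1. The log2 difference of Pdgfrb was 0.45 ± 0.27 with limma adjusted p = 0.303, and it was 0.09 without Cre-positive replicate 3. Its 95% interval ran from -0.18 to 1.07, up to a 2.10-fold higher level.

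Acta2 was at 10.86, 11.21 and 11.57 in Cre-positive arrays, against 10.40, 10.43 and 10.48 in Cre-negative arrays. The Cre-positive arrays were spread (SD 0.36, n = 3) and all lay above the Cre-negative arrays, which were tightly grouped (SD 0.04, n = 3). The log2 difference was 0.78 ± 0.17, or 1.72-fold with a 95% interval of 1.32 to 2.24, with limma adjusted p = 0.0130, and adjusted p = 0.0502 without Cre-negative replicate 1. Actin genes are close in sequence, and signal of this probe set from another actin cannot be told apart. Skeletal muscle actin, Acta1, was at 6.00, 8.93 and 6.06 in Cre-positive arrays, against 5.82, 5.73 and 5.51 in Cre-negative arrays. The Acta2 level of Cre-positive replicate 2, the array with muscle transcripts, lay between those of the other Cre-positive arrays.

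Tagln, which encodes transgelin (SM22 alpha), an actin-binding protein of smooth muscle, had the largest difference of the 10. It was at 8.98, 9.29 and 9.95 in Cre-positive arrays, against 8.002, 8.05 and 8.31 in Cre-negative arrays. The lowest Cre-positive array stood 0.68 above the highest Cre-negative one on the log2 scale. The log2 difference was 1.29 ± 0.23, or 2.44-fold with a 95% interval of 1.69 to 3.53, with limma adjusted p = 0.00599. Tagln passed limma's test in all 6 fits that left out 1 array, with log2 differences of 1.02 to 1.503. With the sex term the log2 difference was 1.10 with limma adjusted p = 0.0919.

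Cnn1 and Des, the other contractile and cytoskeletal genes, did not pass. Cnn1, which encodes the actin-binding protein calponin 1, was at 7.11, 7.83 and 7.80 in Cre-positive arrays, against 6.93, 7.26 and 7.29 in Cre-negative arrays. The log2 difference was 0.42 ± 0.20 with limma adjusted p = 0.190. Des, which encodes desmin, the intermediate filament protein of muscle and of mesangial cells, was at 7.77, 8.53 and 8.51 in Cre-positive arrays, against 7.97, 7.86 and 8.002 in Cre-negative arrays. For both genes Cre-positive replicate 1 lay within or below the Cre-negative range, and the other Cre-positive arrays lay above it. The log2 difference of Des was 0.32 ± 0.20 with limma adjusted p = 0.312. Without Cre-positive replicate 1, which leaves the array with muscle transcripts as 1 of 2 Cre-positive arrays, limma called both, with 0.66 for Cnn1 (adjusted p = 0.0144) and 0.57 for Des (adjusted p = 0.00671). Without Cre-positive replicate 2, the array with muscle transcripts, limma called neither. The log2 differences were then 0.30 for Cnn1 (limma adjusted p = 0.436) and 0.19 for Des (adjusted p = 0.620). Desmin is also a gene of skeletal muscle, whose transcripts stood high in Cre-positive replicate 2, and their part in the Des and Cnn1 levels was not tested.

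**Figure D2:**
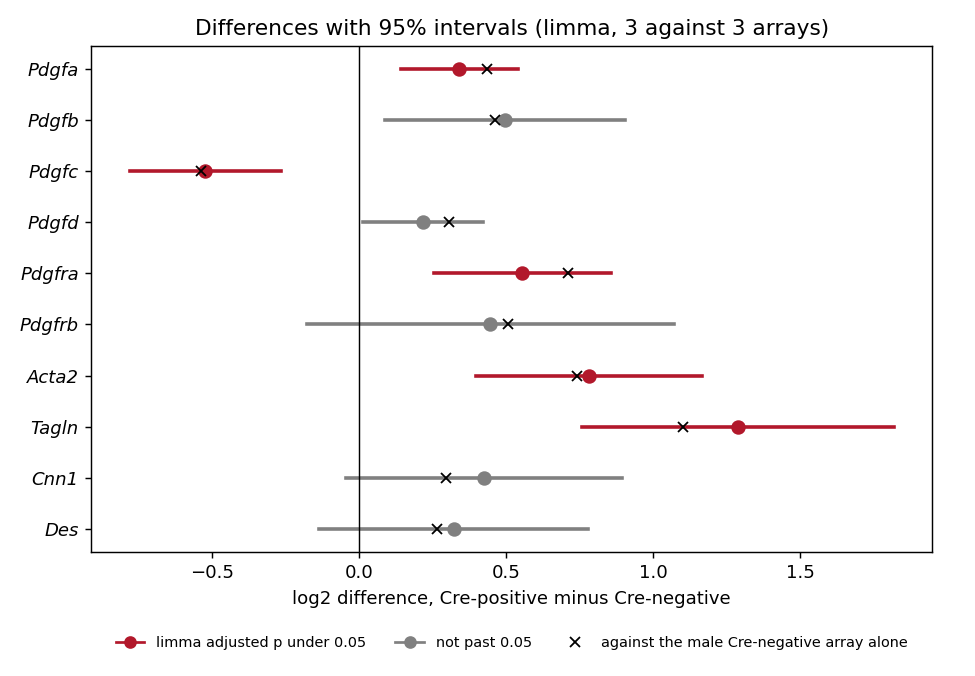
Log2 difference of each gene, Cre-positive minus Cre-negative (points), with the 95% interval from limma (lines, 3 against 3 arrays); red marks adjusted p under 0.05, and crosses give the mean of the Cre-positive arrays minus the male Cre-negative array alone. Against that array 9 of the 10 genes were higher and Pdgfc was lower, from 0.27 for Des to 1.10 for Tagln and -0.54 for Pdgfc.

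The promoter windows of the contractile genes with an entry are shown because the relaxed CArG form set Acta2 apart from Cnn1 and Des. CArG-like letters are in capitals. Acta2 lies at chr19:34255324-34255623 on the minus strand, Cnn1 at chr9:22099003-22099302 and Des at chr1:75360042-75360341 on the plus strand.
Acta2: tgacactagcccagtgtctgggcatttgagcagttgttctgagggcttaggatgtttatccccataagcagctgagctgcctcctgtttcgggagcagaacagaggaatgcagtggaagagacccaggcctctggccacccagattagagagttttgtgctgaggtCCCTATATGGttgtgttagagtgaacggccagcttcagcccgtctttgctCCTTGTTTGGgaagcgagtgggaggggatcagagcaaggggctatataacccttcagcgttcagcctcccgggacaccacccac
Cnn1: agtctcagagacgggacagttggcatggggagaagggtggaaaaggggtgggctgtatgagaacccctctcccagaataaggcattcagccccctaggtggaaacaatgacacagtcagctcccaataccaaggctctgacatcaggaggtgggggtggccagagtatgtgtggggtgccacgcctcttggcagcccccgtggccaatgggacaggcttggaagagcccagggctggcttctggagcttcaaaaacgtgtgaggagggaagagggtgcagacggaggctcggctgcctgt
Des: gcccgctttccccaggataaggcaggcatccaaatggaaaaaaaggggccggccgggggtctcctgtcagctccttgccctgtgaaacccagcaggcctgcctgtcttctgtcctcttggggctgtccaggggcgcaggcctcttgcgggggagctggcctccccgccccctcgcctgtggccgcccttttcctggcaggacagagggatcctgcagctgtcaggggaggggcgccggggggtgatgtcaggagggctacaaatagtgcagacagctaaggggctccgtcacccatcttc
Acta2 held 2 CArG-like sites, starting 84 and 34 bases before the start site, and no other member's window held one (8.5% of all windows do). GGAATG stood once in the Acta2 window, at position -146 from the start. Cnn1 and Des held neither motif in these windows, which says nothing of sites farther away.

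The SD was larger among Cre-positive than among Cre-negative arrays for 8 of the 10 genes. This held for 62.2% of all tested genes and 65.1% of those with a higher Cre-positive mean, so it does not set the 10 genes apart. Pdgfa (SD 0.06 against 0.08) and Pdgfd (0.07 against 0.09) had the smaller SD among Cre-positive arrays. Cre-positive replicate 1 was the lowest Cre-positive array for 8 of the 10 genes, which held for 32.5% of all tested genes, and Cre-positive replicate 3 was the highest for 8, against 34.9%. All 4 contractile genes had their lowest Cre-positive value in replicate 1. The mean level of the 4 contractile genes stood 0.26, 0.80 and 1.04 above the Cre-negative mean in Cre-positive replicates 1, 2 and 3, on the log2 scale.

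The mean level of 10 macrophage markers was also lowest in Cre-positive replicate 1 and highest in replicate 3 of that group, at 1.11, 1.63 and 2.11 above the Cre-negative mean in Cre-positive replicates 1, 2 and 3. That of 10 fibroblast markers stood at -0.11, 0.41 and 0.98. Among the macrophage markers 8 of 10 rose and 0 fell by limma (9 and 0 at an unadjusted p under 0.05), with Cd14 (2.56 ± 0.12), Itgam (2.40 ± 0.23), Cd68 (2.13 ± 0.21) and Lyz2 (2.12 ± 0.23) at the smallest p. The 8 became 5 with the sex term, 4 with male arrays alone and 5 without both arrays with transcripts of other tissues. The log2 of their summed level was 11.73 to 12.74 in Cre-positive arrays, against 10.72 to 10.84 in Cre-negative arrays. Of the fibroblast markers 3 rose and 0 fell (3 and 0 unadjusted), namely Gli1, a Hedgehog-responsive transcription factor of perivascular cells (1.11 ± 0.13), the microfibril gene Mfap5 (1.68 ± 0.29) and the matrix proteoglycan gene Dcn (0.94 ± 0.22). Mfap4 (0.47 ± 0.23) and Dpt (-0.63 ± 0.32) did not pass. With the sex term limma called Gli1 alone higher and Nt5e lower, and Gli1 was also the only marker called with male arrays alone or without both arrays with transcripts of other tissues. Without Cre-positive replicate 1 the count of higher genes was 6. The summed level of the fibroblast list on the log2 scale was 12.24 to 13.10 in Cre-positive arrays, against 11.95 to 12.17 in Cre-negative arrays. Bright genes weigh most in this sum: Dcn alone was at 11.53 in Cre-positive replicate 1, where the list's mean lay below the Cre-negative mean (-0.11). The part of the macrophage and fibroblast markers in the differences of the 10 genes was not tested. Platelets carry PDGF, and of 5 platelet markers limma called 0 (none higher and 1 lower at unadjusted p under 0.05); their summed level on the log2 scale was 7.96 to 8.29 in Cre-positive arrays, against 8.02 to 8.12 in Cre-negative arrays.

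**Figure D3:**
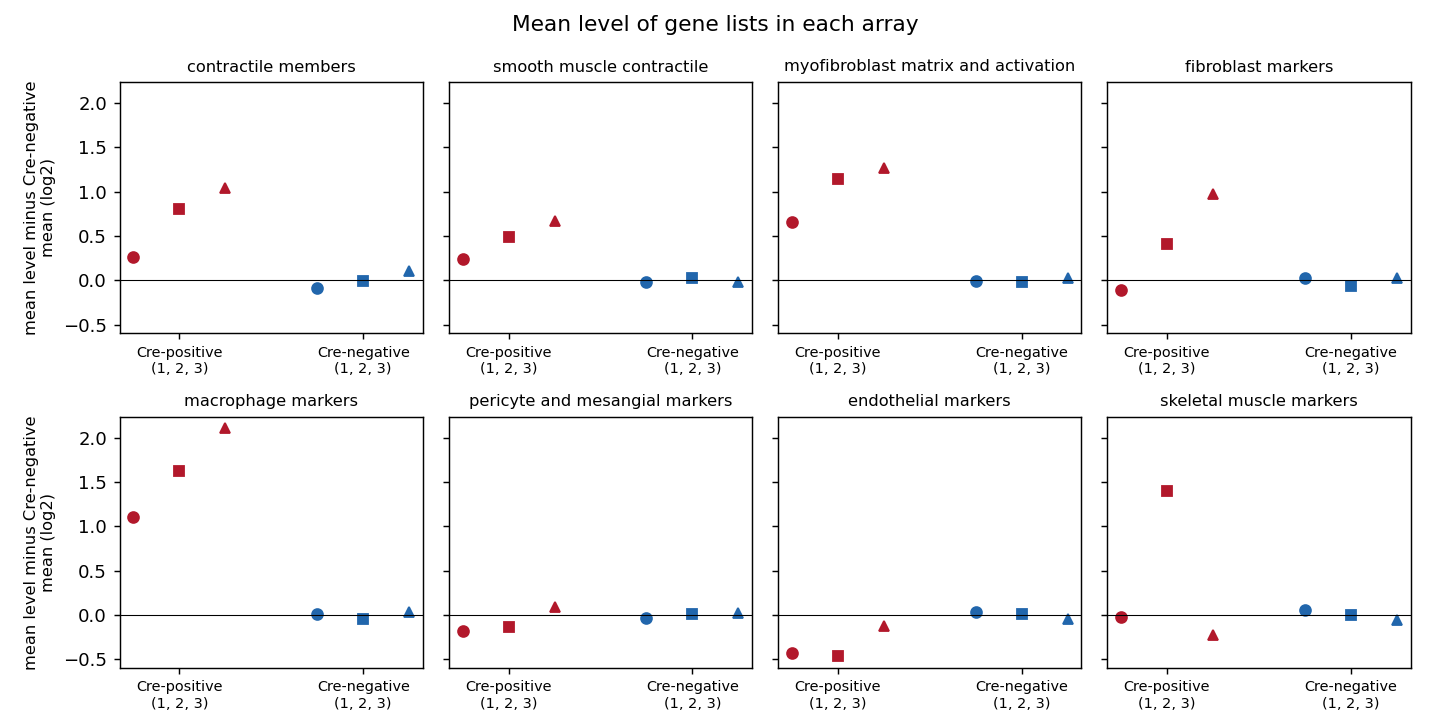
Mean level of 8 gene lists in each array, minus the list's mean over the Cre-negative arrays (log2), for Cre-positive arrays (red, left) and Cre-negative arrays (blue, right); shapes give the replicate. The contractile, matrix, fibroblast and macrophage lists are lowest in Cre-positive replicate 1 and highest in Cre-positive replicate 3 of the Cre-positive arrays, and skeletal muscle markers stand out in Cre-positive replicate 2 alone, at 1.40.

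Other contractile genes of smooth muscle and focal adhesions rose as well. Of 23 measured genes of this list 11 rose and 0 fell by limma (13 and 1 at an unadjusted p under 0.05), with a median log2 difference of 0.52, against -0.01 over all tested genes, of which 21.8% were called in either direction. The largest rises were those of Actn1, which encodes alpha-actinin 1 (1.55 ± 0.09), the actin cross-linker Flna (1.20 ± 0.11), Pdlim7 (1.18 ± 0.11) and the tropomyosin gene Tpm1 (1.10 ± 0.12). These genes are also expressed in epithelial and endothelial cells. Among genes more restricted to smooth muscle, Myh11, which encodes smooth muscle myosin heavy chain, was at 8.82, 9.11 and 8.84 in Cre-positive arrays, against 8.30, 8.39 and 8.45 in Cre-negative arrays (0.54 ± 0.10, limma adjusted p = 0.00874). Mylk, the myosin light chain kinase, rose by 0.52 ± 0.11 and Vcl, which encodes vinculin, by 0.59 ± 0.10. The smooth muscle genes Myl9 (0.21 ± 0.17) and Actg2 (0.40 ± 0.22) did not pass, nor did Itga8, an integrin gene of mesangial cells (-0.81 ± 0.26, limma adjusted p = 0.0627). With the sex term, with male arrays alone and without both arrays with transcripts of other tissues the same 4 of the 23 were higher by limma (Actn1, Flna, Pdlim7 and Tpm1), and 7 were without Cre-negative replicate 1. Limma called 2 of the 23 lower when Cre-positive replicate 3 was left out.

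Smooth muscle genes are controlled by serum response factor together with the cofactor myocardin. Srf itself was at 8.30, 8.52 and 8.64 in Cre-positive arrays, against 8.45, 8.43 and 8.38 in Cre-negative arrays, and did not pass (0.07 ± 0.10). Myocd, which encodes myocardin, was at 6.85, 7.04 and 7.03 in Cre-positive arrays, against 6.27, 6.21 and 6.14 in Cre-negative arrays, and rose by 0.77 ± 0.09 with limma adjusted p = 0.00104. Its Cre-positive arrays all lay above the Cre-negative ones. The TEAD factor genes Tead1 (0.67 ± 0.09) and Tead3 (0.64 ± 0.09) and the LIM cofactor gene Fhl2 (0.57 ± 0.12) also rose, so that 4 of 6 measured genes of this list were higher and 0 lower by limma (4 and 1 at an unadjusted p under 0.05), and 3 were higher and 1 lower with the sex term. Myocd and Tead3 were the 2 higher with male arrays alone. Without Cre-positive replicate 3 limma called 1 of the 6 lower. The cofactor genes Mkl1 and Mkl2 were also on the list, but no tested gene carried those symbols.

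Of 16 measured matrix and activation genes of myofibroblasts 11 rose and 0 fell by limma (13 and 0 at an unadjusted p under 0.05), with a median log2 difference of 1.18. Lox, the collagen cross-linking enzyme, rose by 2.14 ± 0.18, Tnc, which encodes tenascin C, by 1.79 ± 0.21, and the collagen gene Col1a1 by 1.49 ± 0.22. Vim, which encodes vimentin, rose by 1.21 ± 0.14, Pdpn by 1.35 ± 0.09, Fn1, which encodes fibronectin, by 1.40 ± 0.19, and Tgfb1, the ligand that induces Acta2 in fibroblasts, by 1.14 ± 0.15. Several of these genes are also expressed by injured epithelium and macrophages. Postn (0.50 ± 0.27) and Fap (-0.08 ± 0.09), which mark activated fibroblasts, did not pass. Postn was at 7.80, 8.78 and 8.98 in Cre-positive arrays, against 8.04, 7.99 and 8.02 in Cre-negative arrays. By limma 7 of the 16 were higher with the sex term, and with male arrays alone 4 were (Lox, Tnc, Vim and Pdpn).

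Genes whose products process or bind PDGF changed individually. Of 10 measured genes 4 were higher and 1 lower, with a median log2 difference of 0.04. Over all tested genes 10.7% were called higher and 11.1% lower. Lrp1, an endocytic receptor that binds the beta receptor and its ligand, was at 10.32, 10.52 and 10.44 in Cre-positive arrays, against 9.27, 9.32 and 9.17 in Cre-negative arrays (1.17 ± 0.09, limma adjusted p = 0.000187). Plaur, the urokinase receptor gene, rose by 1.56 ± 0.10. Sparc, whose product binds PDGF-B, rose by 0.58 ± 0.11, and St14, which encodes matriptase, a protease able to activate PDGF-D, by 0.53 ± 0.14. Pcsk6, a proprotein convertase gene, fell to 7.02, 7.62 and 7.24 in Cre-positive arrays, against 9.03, 9.05 and 8.98 in Cre-negative arrays (-1.73 ± 0.15). Plat, which encodes tissue plasminogen activator, the activator of PDGF-C, did not pass (0.01 ± 0.13), nor did Plau (-0.13 ± 0.10) or Furin (0.08 ± 0.09). The 4 higher genes became 3 with the sex term and 2 (Plaur and Lrp1) with male arrays alone or without both arrays with transcripts of other tissues, and Pcsk6 was lower in each.

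Among 25 measured genes of PDGF receptor signal transduction, which most receptor tyrosine kinases share, 8 rose and 2 fell, with a median log2 difference of 0.15. Stat3 had the largest difference, at 11.03, 11.11 and 11.08 in Cre-positive arrays, against 9.9955, 9.96 and 9.98 in Cre-negative arrays (1.10 ± 0.08). The kinase genes Akt1 (0.61 ± 0.08) and Src (0.58 ± 0.09), the phosphatase gene Ptprj (0.45 ± 0.08), the ubiquitin ligase gene Cbl (0.39 ± 0.08), the adaptor gene Shc1 (0.43 ± 0.09) and the phospholipase gene Plcg1 (0.51 ± 0.11) rose. The catalytic subunit genes of phosphoinositide 3-kinase, Pik3ca (-0.34 ± 0.08) and Pik3cb (-0.33 ± 0.08), fell. By limma 4 were higher with the sex term, and Stat3 and Akt1 alone were with male arrays alone or without both arrays with transcripts of other tissues. Neither Pik3ca nor Pik3cb passed in these fits; the 2 lower calls were also lost in each fit without Cre-positive replicate 2 or any 1 of the 3 Cre-negative arrays.

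**Figure D4:**
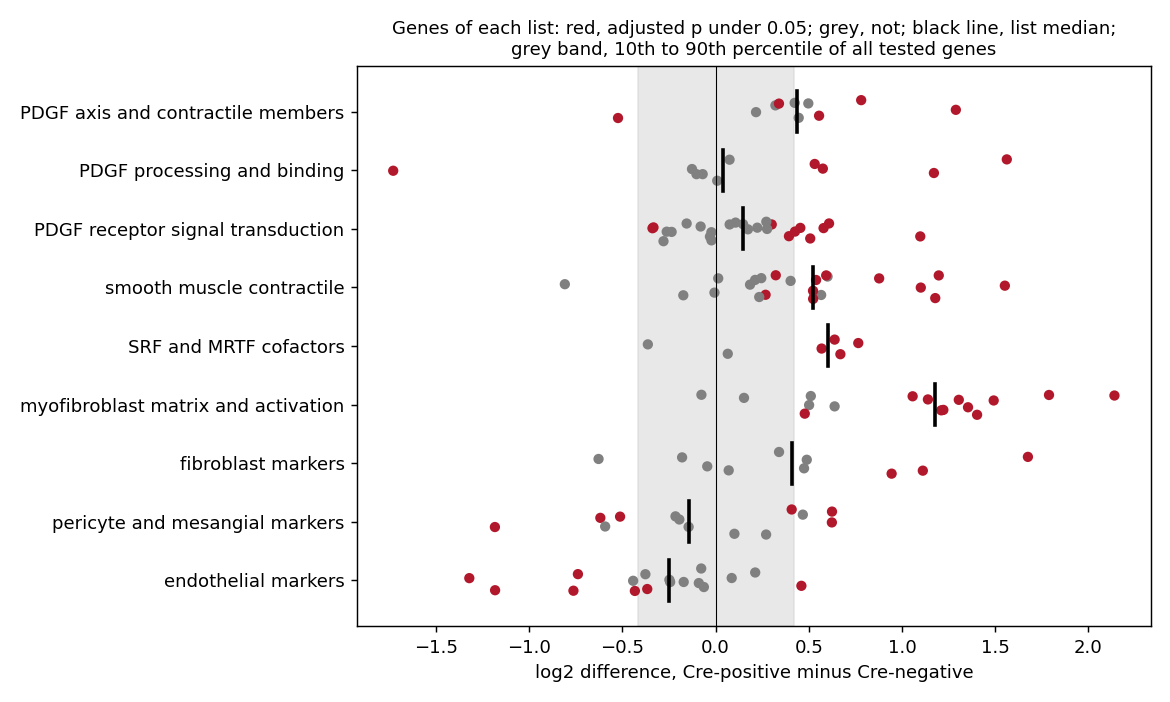
Log2 difference, Cre-positive minus Cre-negative, of every measured gene in 9 lists; red points passed limma at adjusted p under 0.05, black lines are list medians, and the grey band spans the 10th to the 90th percentile of all tested genes (-0.42 to 0.42). The medians are 1.18 for the matrix list, 0.60 for the cofactor list (which also holds Srf, Tead1 and Tead3), 0.52 for the contractile list, 0.44 for the 10 genes and 0.41 for the fibroblast list, and those of the endothelial and pericyte lists lie below 0.

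Markers of the cells that carry the beta receptor moved both ways. Of 13 pericyte and mesangial markers 3 rose and 3 fell, with a median log2 difference of -0.14. Notch3, a receptor gene of mural cells, rose by 0.62 ± 0.10 and Mcam by 0.62 ± 0.15, while Abcc9 (-0.62 ± 0.12), the angiotensin receptor gene Agtr1a (-0.51 ± 0.11) and Angpt2 (-1.18 ± 0.26) fell. Limma with the sex term called Notch3 higher and Abcc9 lower, and Notch3 was the only marker called with male arrays alone or without both arrays with transcripts of other tissues. Without Cre-positive replicate 2 limma called 1 higher and 1 lower, and without Cre-negative replicate 1 it called 1 higher. The summed level of this list on the log2 scale was 12.07 to 12.49 in Cre-positive arrays, against 12.11 to 12.22 in Cre-negative arrays. Endothelial cells are a main source of PDGF-B, and of 17 endothelial markers 6 fell and 1 rose. Over all tested genes 11.1% were called lower and 10.7% higher. The 10 that did not pass included Pecam1 (-0.09 ± 0.10), Tie1 (-0.08 ± 0.09), Eng (-0.17 ± 0.14) and Cldn5 (-0.06 ± 0.13). Kdr, which encodes VEGF receptor 2, fell by 1.18 on the log2 scale (-1.18 ± 0.13) and Ehd3, a marker of glomerular endothelium, by 1.32 (-1.32 ± 0.17). Tek, which encodes the angiopoietin receptor, fell by 0.74 (-0.74 ± 0.13), whereas Vwf, the von Willebrand factor gene, rose by 0.46 ± 0.10. The 6 lower endothelial genes became 10 without Cre-positive replicate 3 and 3 without Cre-positive replicate 2 or any 1 of the Cre-negative arrays, and the call of Vwf was lost without Cre-positive replicate 2 or without Cre-negative replicate 2 or 3. With the sex term, and without both arrays with transcripts of other tissues, limma called Kdr and Ehd3 alone, and with male arrays alone it called Kdr alone. Smooth muscle also lies in the wall of the renal pelvis, and all 5 measured urothelial markers rose, with Upk1b (1.36 ± 0.13), Upk1a (1.08 ± 0.13), Upk3a (0.83 ± 0.12) and Trp63 (0.60 ± 0.11) at the smallest p; 4 were higher with the sex term and 2 with male arrays alone. Their summed level on the log2 scale was 10.21 to 10.62 in Cre-positive arrays, against 9.30 to 9.45 in Cre-negative arrays. How much pelvis each sample held was not tested.

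To describe which genes ran most alike, each gene's values minus its own mean over the 6 arrays were compared by root mean square distance on the log2 scale. The nearest gene to Acta2 was Loxl1, a lysyl oxidase-like gene (distance 0.05), and the nearest to Tagln was C1qa, a complement gene of macrophages (0.07), with the thrombin receptor gene F2r next (0.10). Pdgfra had Serpinb9 nearest (0.04), and the contractile-list gene Pdlim3 was among its 3 nearest (0.05). Pdgfb had the lymphocyte receptor gene Slamf6 nearest (0.03) and Pdgfc had Tsfm (0.04). No member was among the 3 nearest genes of another member.

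**Figure D5:**
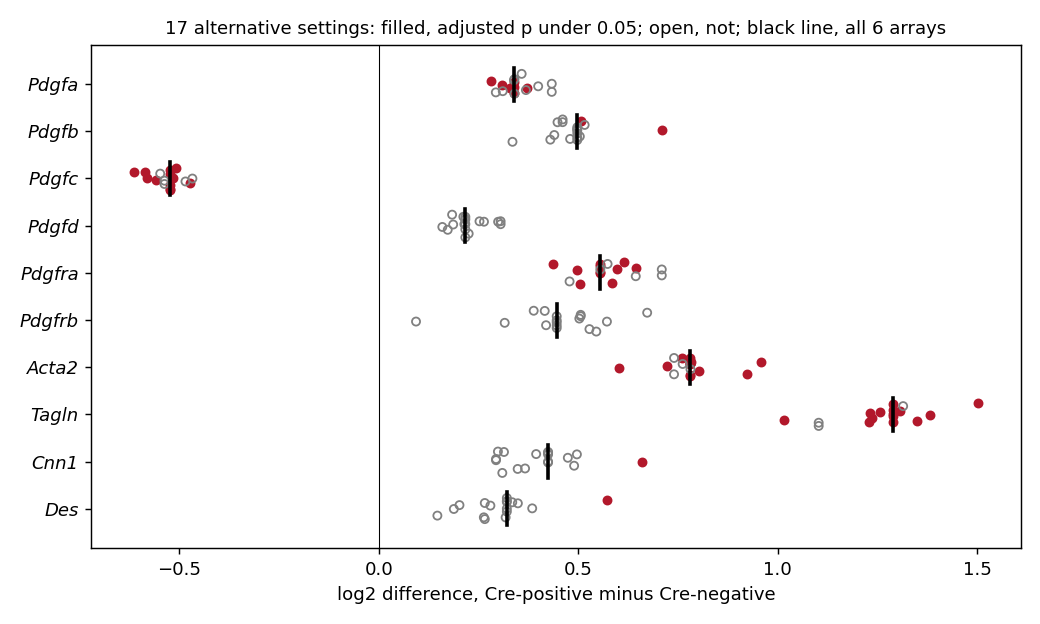
Log2 difference of each gene under 17 alternative settings (points, spread vertically for visibility), filled where limma's adjusted p was under 0.05 and open where not; black lines give the value with all 6 arrays. Every gene keeps its sign under all 17, Tagln is past the threshold in 14, Acta2 in 13, Pdgfc in 12, Pdgfra in 11 and Pdgfa in 7.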

How the data were processed

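Total RNA of 6 mouse kidney samples was labelled with biotin by Affymetrix's whole-transcript protocol and run on 6 arrays, per the labels. The log2 values deposited by the authors were made with RMA and Partek, per the submitters' processing notes, with versions, genome build and annotation not given in the sources used here. By definition RMA subtracts background, applies quantile normalization and combines the probes of a set, and it compresses differences of dim probe sets. Of 41345 rows, 23521 had exactly 1 symbol in GEO's platform annotation; the row with the highest mean over 6 arrays stood for each gene, which left 22180 genes, with no filter on low values.

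Groups were compared with limma 3.58.1 (lmFit, eBayes, two-sided) in R 4.3.3 with Benjamini-Hochberg adjustment over all genes. The number of arrays limits the precision. The 10 genes, the gene lists and the alternatives were chosen with earlier results of these data known, and no list was given a test. Named besides the 10 were Mpp5, Myh4, Cyp11b1 and, in each list, the 4 genes of smallest p and other called genes up to 8; of the platelet, adrenal, skeletal muscle and sex-linked lists not all 4 are named, and not every further called gene is. Dpt, Nt5e, Pik3cb, Srf, Myl9, Actg2, Itga8, Acta1, Postn, Fap, Plat, Plau, Furin, Umod, Slc12a1, Pecam1, Tie1, Eng and Cldn5 were named, and the count alternatives of the lists chosen, after values were seen. Named for likeness were some of the genes at the smallest distance. On simulated data with 22180 genes, limma recovered 20% of 100 genes shifted by a log2 difference of 0.5, with 2 false calls in all. It recovered 80% of 50 shifted by 1 and 98% of 50 shifted by 2. Far fewer genes were shifted there than the 4844 called in the data, which makes the adjusted threshold stricter. The shares are therefore not the power of the comparison of the 10 genes. Promoter sequences came from RefSeq (GRCm38.p6). Figures were drawn with Python 3.11.15 and matplotlib 3.10.9.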

Additional observations from a re-analysis of the deposited data

How the results depend on the processing

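All 10 genes kept their sign under 17 alternatives, which were a second quantile normalization, median centring, a filter at the median level, eBayes trend with robust fitting, weights per array, averaged rows of a gene, testing of every row, a replicate block, a sex term, male arrays alone, no array with transcripts of other tissues, and leaving out each array. The 4 higher genes became 2 with the replicate block (Acta2 and Tagln; Pdgfc stayed lower), and 1 to 6 when 1 array was left out; the 1 lower gene became 0 to 1. With the sex term, male arrays alone (3 against 1, the lone array assumed to vary like the others) or without both arrays with transcripts of other tissues, limma called 0 higher and 0 lower, with 5, 4 and 5 higher and 1 lower each at an unadjusted p under 0.05; these fits use fewer arrays or spend a degree of freedom. The 4844 genes called in all became 2030, 1101 and 1853 in these fits, and 3141 to 4885 when 1 array was left out. At an adjusted p under 0.01, Tagln alone of the 10 was past the threshold. Same-numbered arrays did not deviate together (correlations of deviations 0.03, -0.04 and -0.01), so the replicate numbers were not taken as pairs. Signal over background could not be judged from the deposited values.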

Other observations

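A probe set annotated to both Des and Gm15179, which was left out of the gene tests, stood at 4.43, 4.64 and 4.51 in Cre-positive arrays, against 4.45, 4.76 and 4.51 in Cre-negative arrays. Of the skeletal muscle list 1 of 17 genes rose and 1 fell by limma, Eno3 (0.63 ± 0.17) and Pvalb (-1.25 ± 0.36), and Pvalb is also a gene of the distal convoluted tubule. Pvalb was at 5.98, 7.25 and 5.80 in Cre-positive arrays, against 7.89, 7.58 and 7.31 in Cre-negative arrays. Of 7 adrenal cortex markers limma called 0 (0 at an unadjusted p under 0.05), with Cre-negative replicate 2 standing apart from the other arrays.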
